A study of Mus musculus with 40 samples.

Results

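The 36 genes described here encode aminoacyl-tRNA synthetases, the enzymes that load each tRNA with its amino acid, or the tRNA export receptor. They were chosen by name from 39056 rows of the gene table: 20 cytosolic synthetases, 15 mitochondrial synthetases and Xpot, which carries tRNA out of the nucleus. The mitochondrial leucyl enzyme gene Lars2 was left out because it draws reads that resemble ribosomal RNA. None of the 36 was lost to the low-count filter, which left 15135 genes to test.

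The mRNA came from bulk cultures of developing oligodendrocytes, the cells that go on to make myelin, from wild-type C57BL/6 mouse pups 6 days old, and was read by RNA sequencing. The labels give both cortex and whole brain as the source. Progenitors were purified by immunopanning, taken through 2 passages and left to differentiate for 12 to 14 h before treatment. One set of plates received interferon-gamma (IFN-gamma, a cytokine of T cells and natural killer cells) at 200 U/ml and was collected at 1, 8, 24 and 48 h. Another received thapsigargin, an inhibitor of the calcium pump of the endoplasmic reticulum that provokes the unfolded protein response, at 200 uM as the labels state it, and was collected at 1 and 8 h. Untreated cells, for which no vehicle is named, were collected at 1, 8, 24 and 48 h. Each of the 10 groups holds 4 libraries, and the labels do not say whether these come from separate cultures or animals, so the p-values measure the spread between libraries only.

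Most synthetases recognise a single amino acid and its tRNAs, and separate genes serve the cytosol and the mitochondrion for most amino acids. Gars and Kars each encode both forms of their enzyme. When a cell lacks an amino acid or its endoplasmic reticulum is stressed, kinases phosphorylate the initiation factor eIF2alpha, translation slows, and the transcription factor ATF4 is made. ATF4 is known to raise genes of amino acid uptake, amino acid synthesis and tRNA charging. Wars, the cytosolic tryptophanyl enzyme, is also a known interferon-gamma target, and in human cells it has a promoter that answers interferon.

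The libraries held 13165483 to 22651092 reads on genes. In IFN-gamma 1 h replicate 2, 24.3% of reads lay on features resembling ribosomal RNA, against at most 8.43% in the other libraries. The summed level of 4 Y-linked genes was at most 29.6 CPM (reads on the gene scaled to a common library size) in 10 libraries, namely 2 in each IFN-gamma group and replicate 2 of both thapsigargin groups, and at least 144 CPM in all others. All 10 oligodendrocyte lineage markers were detected, with a summed level of 5687 to 6827 CPM in IFN-gamma 24 h libraries against 7973 to 9697 CPM in untreated 24 h libraries. Of 6 microglial markers 5 stayed under 1 CPM in every group, as did 5 of 6 endothelial and mural and 3 of 4 fibroblast markers. The exceptions were P2ry12, Acta2 and Lum. Acta2 reached a group mean of 9.98 CPM in IFN-gamma 24 h cells and Lum one of 8.08 CPM in IFN-gamma 48 h cells. In these bulk samples fewer cells of a type and less RNA per cell cannot be told apart.

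In untreated cells at 1 h the mRNAs of the cytosolic enzymes were the more abundant. On the scale of CPM per kb of exon, untreated 1 h cells had a median of 33.6 over the 20 cytosolic genes and 6.10 over the 15 mitochondrial genes. Gars, which serves both compartments, stood at 71.1 ± 1.698 CPM per kb (SD, n = 4), followed by Hars at 57.6 ± 0.961 and Rars at 55.4 ± 2.85, and Hars and Rars lay within 1 SD of each other. The low end of the cytosolic set was formed by Qars at 8.42 ± 0.386 and Cars at 8.24 ± 0.241 CPM per kb. These lay within 1 SD of the mitochondrial genes beside them in the order. Wars2, the mitochondrial tryptophanyl enzyme gene, was the lowest of the 36 at 1.77 ± 0.184 CPM per kb. The exon length counts every annotated exon, retained introns included, which lowers the value of genes with many such forms.

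After 8 h of thapsigargin most cytosolic synthetase mRNAs rose several-fold, and most mitochondrial ones moved little. Of the 20 cytosolic genes 16 rose, 1 fell and 3 did not pass the test, and their median log2 fold change was 1.69, against -0.01 over all genes tested. Of all 36 members 21 rose (58.3%), where 29.6% of all genes tested rose, and 7 fell, where 31% of all genes fell (edgeR quasi-likelihood test, Benjamini-Hochberg adjusted p under 0.05). The level summed over the cytosolic genes was 10605 ± 338 CPM in thapsigargin cells and 3221 ± 174 CPM in untreated cells of 8 h (SD, n = 4 each). The mitochondrial sum was 512 ± 5.85 CPM in thapsigargin cells and 503 ± 16.8 CPM in untreated cells.

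**Figure D1:**
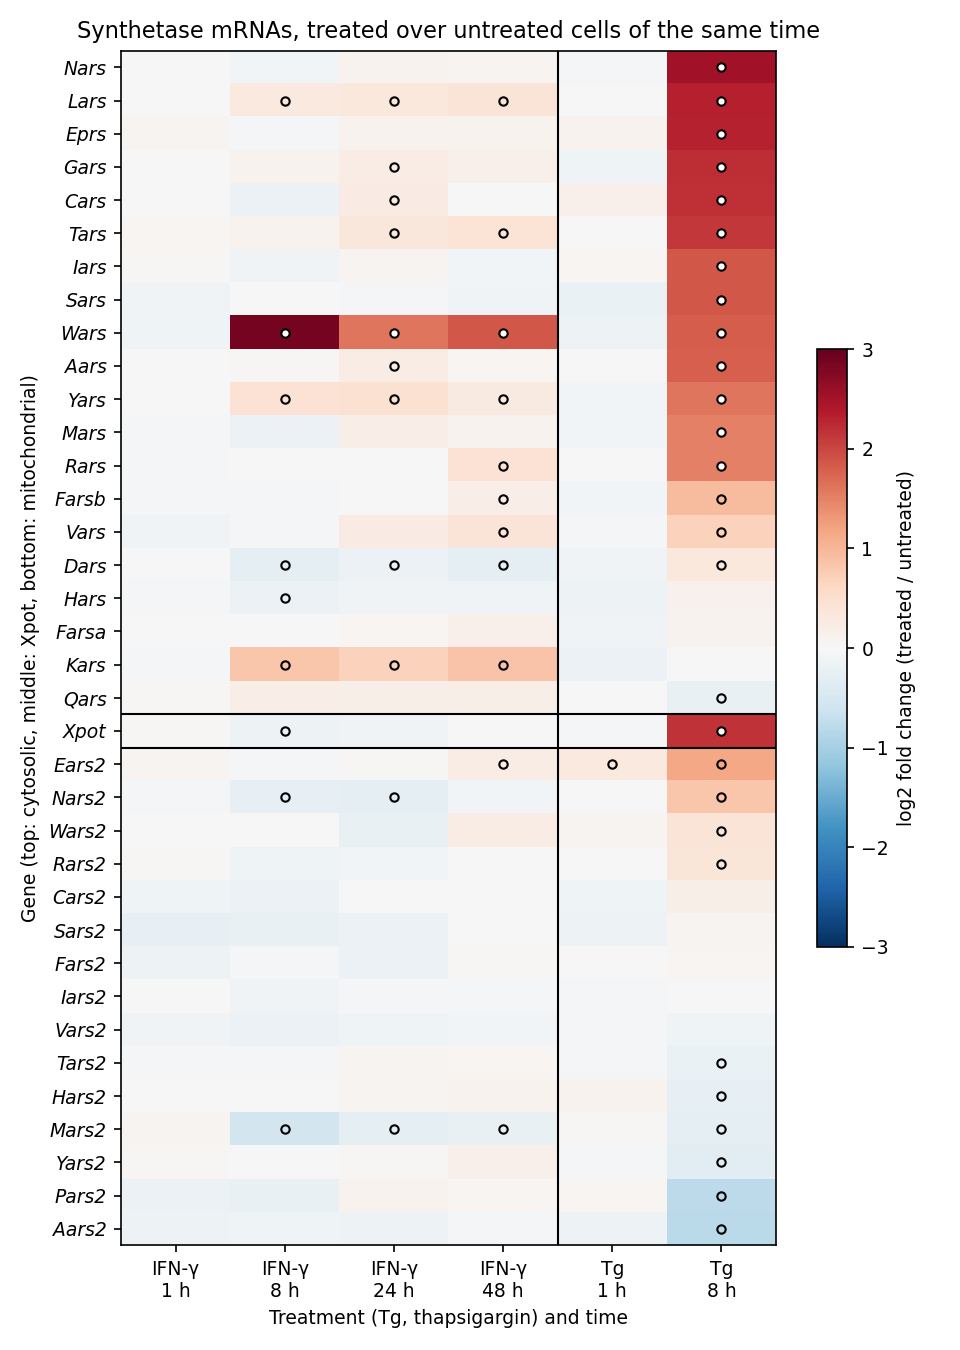
Log2 fold change of each member (rows) in each treatment group over untreated cells of the same time (columns), as colour from blue (lower) to red (higher), with a circle where the adjusted p is under 0.05. The 8 h thapsigargin column is red for most cytosolic genes and Xpot, from Nars at 2.51 down to Qars at -0.22, and the deepest IFN-gamma colours are those of Wars, at 2.87, 1.60 and 1.87 from 8 to 48 h.

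Nars, which charges asparagine tRNA, moved the most among the members. It had 1201, 1175, 1276 and 1225 CPM in thapsigargin 8 h libraries, against 229, 200.6, 224 and 202 CPM in untreated 8 h libraries. Every thapsigargin library lay far above every untreated one. The log2 fold change was 2.51 ± 0.07 (SE; edgeR adjusted p = 4.97e-26).

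Eprs encodes a joined enzyme for glutamate and proline. It had 1687, 1745, 1832 and 1772 CPM in thapsigargin libraries, against 351, 347, 388 and 342 CPM in untreated libraries, with no overlap and a log2 fold change of 2.30 ± 0.06. Lars, for leucine, had 711, 685, 797 and 748 CPM, against 149.6, 144, 147 and 141 CPM in untreated libraries, again without overlap (2.34 ± 0.07). Gars, for glycine, had 963, 971.5, 1028 and 952.5 CPM in thapsigargin libraries, against 221, 204.9, 217 and 195 CPM in untreated libraries. The libraries of Gars were as well separated, with a log2 fold change of 2.22 ± 0.08. Cars, for cysteine, had 280.1, 265, 281 and 285 CPM in thapsigargin libraries, against 62.1, 57.1, 67.9 and 54.8 CPM in untreated libraries (2.20 ± 0.09). Xpot, the export receptor, had 643, 676, 695 and 679 CPM in thapsigargin libraries, against 152, 143, 157 and 150.2 CPM in untreated libraries. No library of one group reached the other, and Xpot rose by 2.16 ± 0.05 on the log2 scale.

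Tars (2.11 ± 0.06), Iars (1.86 ± 0.06), Sars (1.85 ± 0.07), Wars (1.82 ± 0.12) and Aars (1.79 ± 0.06) followed on the log2 fold scale. Yars (1.60 ± 0.08), Mars and Rars (1.52 ± 0.11 and 1.52 ± 0.09) came next, then Farsb (0.96 ± 0.07), Vars (0.70 ± 0.12) and Dars (0.32 ± 0.05). Kars, for lysine, had 194, 182, 204.8 and 199.5 CPM in thapsigargin libraries, against 219, 193, 193 and 179 CPM in untreated libraries. Its libraries overlapped, and the log2 fold change of -0.01 ± 0.09 did not pass the test (edgeR adjusted p = 0.946). Farsa (0.11 ± 0.06) and Hars (0.12 ± 0.07) did not pass either, and Qars, for glutamine, fell by 0.22 ± 0.08 on the log2 scale. Qars lost its call when replicate 2 or 4 of thapsigargin 8 h, or replicate 1 or 2 of untreated 8 h, was left out (highest edgeR adjusted p over all settings tried 0.243). In the reference annotation the exons of Mars overlap those of Ddit3 on the opposite strand by 68 bases, and Ddit3 stood at 559 ± 27.3 CPM in thapsigargin 8 h cells and 6.47 ± 1.05 CPM in untreated cells. Aars shares 15.1% of its exon bases with other genes, mostly Exosc6, and Farsb 9.47% with Sgpp2. Whether counting used strand is not given in the sources used here. The part of the overlaps in these values was not tested.

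Farsa and Farsb encode the subunits that together form the phenylalanyl enzyme. The log2 ratio of Farsb to Farsa reads was 0.74 to 0.91 over the thapsigargin 8 h libraries, against -0.07 to 0.03 over the untreated 8 h libraries. The ranges did not overlap, and outside the thapsigargin 8 h group the highest ratio of any library was 0.18. Farsb had 211, 200.9, 228.5 and 205.5 CPM in thapsigargin libraries, against 116, 108, 109.7 and 100.4 CPM in untreated libraries, while Farsa had 107 to 125 CPM and 102 to 122 CPM. Eprs, Iars, Lars, Mars, Qars, Rars, Kars and Dars encode the 8 synthetases of the multi-synthetase complex, which is held together by scaffold proteins. Of these 6 rose and 1 fell (median log2 fold change 1.52), and of the other 12 cytosolic genes 10 rose and 0 fell (median 1.81). The scaffold gene Aimp1 rose by 0.86 ± 0.08 and Eef1e1 by 0.22 ± 0.07, and Aimp2 did not pass the test.

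**Figure D2:**
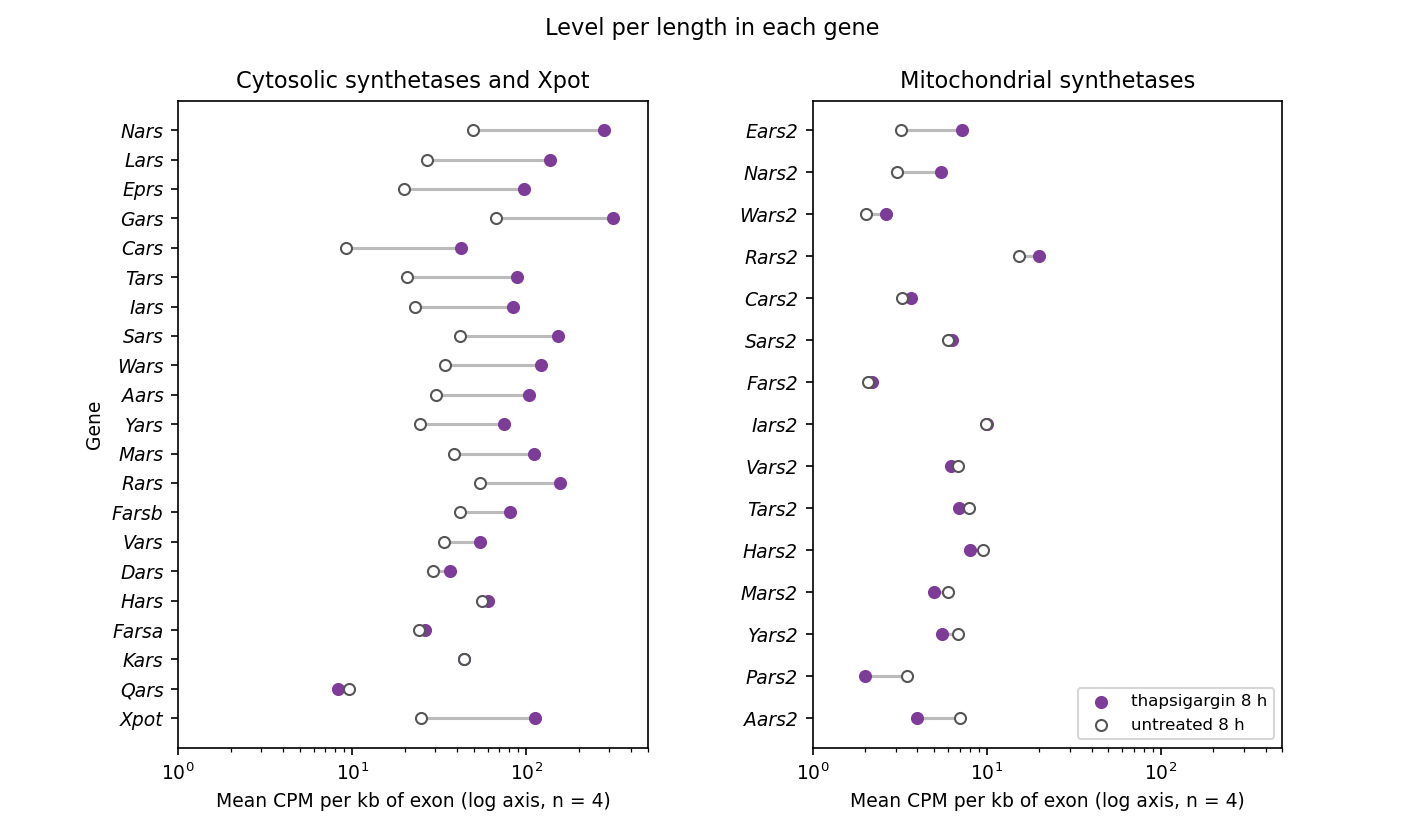
Mean level per kb of exon of each member (rows, log axis) in thapsigargin 8 h cells (filled) and untreated 8 h cells (open), each the mean of 4 libraries. The pairs of points are far apart for the upper cytosolic genes and Xpot, and close together for Kars, Hars, Farsa and most mitochondrial genes.

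Of the 15 mitochondrial members 4 (26.7%) rose, where 29.6% of all genes did, and 6 (40%) fell, where 31% of all genes did. Their median log2 fold change was 0.02. Ears2, the mitochondrial glutamyl enzyme gene, had 36.9, 38, 37.1 and 36.8 CPM in thapsigargin libraries, against 16.3, 16.5, 17.7 and 15.6 CPM in untreated libraries. No library of one group reached the other, and the log2 fold change was 1.17 ± 0.08. Nars2, for asparagine, had 37.0, 35.7, 42.8 and 37.3 CPM, against 22.4, 21.8, 21.1 and 20.1 CPM in untreated libraries (0.84 ± 0.07). Wars2 (0.39 ± 0.09) and Rars2 (0.36 ± 0.06) rose less. Aars2, for alanine, fell to 20.7, 17.99, 18.5 and 18.7 CPM in thapsigargin libraries, against 36.4, 32.5, 31.8 and 32.4 CPM in untreated libraries (-0.81 ± 0.09). Pars2, for proline, changed by -0.79 ± 0.11, and Yars2, Mars2, Hars2 and Tars2 by between -0.31 and -0.19. Tars2 lost its call when replicate 2 or 3 of thapsigargin 8 h, or replicate 1 or 2 of untreated 8 h, was left out (highest edgeR adjusted p over all settings tried 0.795). The asparaginyl enzyme genes of both compartments thus rose, and of the alanyl pair Aars rose and Aars2 fell. The mitochondrial translation factors and tRNA modifiers around them rose in 3 and fell in 4 of 16, with Trmu at 0.55 ± 0.07.

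Other steps of the tRNA pathway were counted in the same comparison, in which 29.6% of all genes rose and 31% fell. Of 12 tRNA processing genes 7 fell and the others did not pass the test, and the largest falls were those of the splicing endonuclease subunit Tsen34 (-0.72 ± 0.11) and the RNase P subunit Rpp30 (-0.69 ± 0.09). Of 6 cytosolic elongation factors 1 rose, Eef2 (0.27 ± 0.07), and 2 fell, Eef1d (-0.40 ± 0.09) and Eif5a (-0.29 ± 0.09). All 24 genes in a list of ATF4 regulators and targets without synthetases rose, with a median log2 fold change of 3.34. Atf4 stood at 943 ± 47.7 CPM in thapsigargin 8 h cells and 160 ± 19.1 CPM in untreated cells (2.56 ± 0.12), and Asns, which makes asparagine, rose by 3.40 ± 0.13. Slc7a11 (8.92 ± 0.34), Trib3 (8.62 ± 0.35) and Chac1 (7.40 ± 0.31) rose by more, and Nupr1 averaged 110.5 ± 2.71 CPM in thapsigargin cells and 0.0695 ± 0.0862 CPM in untreated cells. Their untreated levels were near or under 1 CPM, so these folds are uncertain in size. The level of such genes in thapsigargin cells can bear on their passing the low-count filter. They are part of the count of 24 and of the median. Of 4 deacylase genes 1 rose, Prorsd1 (0.86 ± 0.22). Eif2ak3, the kinase PERK of the stressed endoplasmic reticulum, rose by 2.16 ± 0.06, the GCN2 inhibitor gene Impact by 1.44 ± 0.10, and Eif2ak2 fell by 1.04 ± 0.11. The large neutral amino acid transporter genes Slc7a5 (3.55 ± 0.24) and Slc3a2 (3.21 ± 0.10) rose too. Oligodendrocyte lineage markers summed to 2875 to 3466 CPM in these thapsigargin libraries, against 6758 to 8034 CPM in untreated libraries, astrocyte markers to 93.2 to 104 CPM, against 197 to 269 CPM, and neuron markers to 192 to 209.5 CPM, against 72.9 to 82.5 CPM. Of the neuron and astrocyte markers 5 of 6 each exceeded 1 CPM in at least 1 group. The part of these shifts in the synthetase values was not tested.

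Over the 10 group means of log2 CPM, the genes whose pattern was most like the mean of the cytosolic synthetases other than Wars were Cth (Pearson r = 0.996), which makes cysteine from cystathionine, then Crcp (0.995), Stt3b (0.994), Mgat2 (0.992) and the amino acid transporter gene Slc1a4 (0.991). These correlations describe 10 points and carry no test. The summed level of the cytosolic genes, Wars included, was 10605 CPM in thapsigargin 8 h cells. In the other groups it was at most 4150 CPM, in IFN-gamma 8 h cells. The thapsigargin 8 h point therefore weighs heavily in these correlations.

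Promoter sequence was available in the RefSeq table (GRCm38.p6, 250 bases before to 50 after the start) for 27 of the 36 members. The C/EBP-ATF response element core TGATGNAA, searched on both strands, occurred in 5 of 14 windows of cytosolic members and Xpot and in 0 of 13 windows of mitochondrial members. It occurred in the windows of 4.51% of 27025 genes. In the 250 bases before the start alone it occurred in 3 of 14, 0 of 13 and 3.91% of genes. The 5 were Aars, with matches beginning 112 bases before and 9 bases after the start, Gars (30 before), Tars (15 before), Iars (7 after) and Yars (3 after). None of these matches overlapped one of the other motifs searched. The windows of Eprs and Gars are shown because both are among the members that rose the most, those of Aars and Tars for their matches, and that of Kars because its level did not pass the test. Aars, Tars and Kars were chosen after the values and matches were seen. Capitals mark the core on either strand.
Gars, chr6:55037751-55038050, plus strand: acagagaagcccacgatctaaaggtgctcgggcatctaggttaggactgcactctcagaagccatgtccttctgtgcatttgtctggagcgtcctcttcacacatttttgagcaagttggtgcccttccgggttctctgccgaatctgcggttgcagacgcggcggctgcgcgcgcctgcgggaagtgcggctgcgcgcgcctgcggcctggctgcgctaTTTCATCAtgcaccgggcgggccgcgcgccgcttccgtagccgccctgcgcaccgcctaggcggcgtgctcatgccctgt
Aars, chr8:111033592-111033891, plus strand: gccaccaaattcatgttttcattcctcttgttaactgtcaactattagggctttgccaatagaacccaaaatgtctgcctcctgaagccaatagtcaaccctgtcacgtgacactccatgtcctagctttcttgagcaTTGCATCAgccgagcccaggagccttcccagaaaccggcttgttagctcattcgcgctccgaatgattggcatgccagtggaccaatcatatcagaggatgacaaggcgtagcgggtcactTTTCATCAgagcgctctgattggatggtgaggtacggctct
Tars, chr15:11399609-11399908, minus strand: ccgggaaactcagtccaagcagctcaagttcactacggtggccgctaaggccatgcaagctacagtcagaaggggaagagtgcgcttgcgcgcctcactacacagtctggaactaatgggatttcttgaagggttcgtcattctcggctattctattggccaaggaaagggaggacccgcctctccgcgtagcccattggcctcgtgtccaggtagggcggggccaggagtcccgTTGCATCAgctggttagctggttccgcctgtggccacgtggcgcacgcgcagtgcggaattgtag
Eprs, chr1:185362794-185363093, plus strand: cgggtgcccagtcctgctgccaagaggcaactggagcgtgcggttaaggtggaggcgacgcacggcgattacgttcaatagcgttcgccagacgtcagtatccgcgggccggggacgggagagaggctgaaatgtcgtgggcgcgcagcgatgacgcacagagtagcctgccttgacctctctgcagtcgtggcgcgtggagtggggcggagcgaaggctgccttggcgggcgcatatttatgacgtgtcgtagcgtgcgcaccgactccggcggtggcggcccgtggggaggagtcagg
Kars, chr8:112011305-112011604, minus strand: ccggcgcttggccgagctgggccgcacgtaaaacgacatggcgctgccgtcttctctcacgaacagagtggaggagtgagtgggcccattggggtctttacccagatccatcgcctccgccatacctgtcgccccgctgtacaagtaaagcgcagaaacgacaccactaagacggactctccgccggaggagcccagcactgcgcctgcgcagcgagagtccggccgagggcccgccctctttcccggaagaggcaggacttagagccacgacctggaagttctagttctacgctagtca
Eprs, which rose by 2.30 on the log2 scale, and Kars hold no such core in these windows. Xpot (2.16), Sars (1.85), Mars (1.52) and Farsb (0.96) also rose and hold no such core, and their windows are not shown. Of the 15 members with a window that rose at 8 h of thapsigargin, 5 held the core, and of the 12 others 0 did. The interferon-gamma activated site core TTCNNNGAA, searched in the same way, was in 2 of 14 windows of cytosolic members and Xpot, those of Aars and Kars, and in 1 of 13 mitochondrial ones, against 9.55% of genes. The interferon-stimulated response element core AAANNGAAA was in 1 of 14, that of Qars, and in 0 of 13, against 12.1% of genes. No window for Wars was in the table. The unfolded protein response element part CCACG was in 11 of 14 and 6 of 13, against 35.5% of genes, and in the 250 bases before the start alone in 6 of 14 and 5 of 13, against 30.96% of genes. A match describes letters in a window, not a binding site.

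At 1 h of thapsigargin the family was close to untreated cells. Ears2 alone rose, by 0.30 on the log2 scale, where 6.61% of all genes tested rose, and 0 members fell, where 2.18% of all genes fell (edgeR; 4 members were lower at an unadjusted p under 0.05, and 1 fell by DESeq2). Without thapsigargin 1 h replicate 2, 1 member was called lower. Atf4 mRNA already stood at 374 ± 67.2 CPM in thapsigargin 1 h cells and 174 ± 10.5 CPM in untreated cells. The difference between the 8 h and the 1 h effect of thapsigargin passed the test upward for 23 members, where 22.7% of all genes did, and downward for 4, where 24.8% did.

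With IFN-gamma Wars had the largest log2 fold change of the 36 members at 8, 24 and 48 h, followed each time by Kars. At 8 h Wars, Kars, Yars and Lars rose and 5 members fell. These are 4 higher, where 13.1% of all genes tested rose, and 5 lower, where 12.1% fell. Wars had 784, 779.7, 897 and 988 CPM in IFN-gamma 8 h libraries, against 128, 114, 109.6 and 121 CPM in untreated 8 h libraries. All IFN-gamma libraries lay above all untreated ones, with a log2 fold change of 2.87 ± 0.12 (edgeR adjusted p = 9.58e-21). Kars had 354, 329, 351 and 371 CPM, against 219, 193, 193 and 179 CPM in untreated libraries, also without overlap (0.84 ± 0.09; edgeR adjusted p = 1.98e-09). Yars, for tyrosine, rose by 0.43 ± 0.07 and Lars by 0.29 ± 0.07, and both lost their call when only the libraries with the lower 20 of the 40 library numbers in the labels were used.

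The members that fell at 8 h did so by little. Mars2, the mitochondrial methionyl enzyme gene, had 47.5, 47.8, 48.3 and 42.8 CPM in IFN-gamma libraries, against 66.01, 66.2, 71.8 and 68.03 CPM in untreated libraries (-0.54 ± 0.07). Its groups did not overlap. Dars, for aspartate, changed by -0.27 ± 0.05, Nars2 by -0.24 ± 0.07 and Hars by -0.19 ± 0.07, and the libraries of Nars2 and Hars overlapped. Xpot had 133, 139, 138 and 131 CPM in IFN-gamma libraries, against 152, 143, 157 and 150.2 CPM in untreated libraries, without overlap (-0.15 ± 0.04). Wars, Kars, Mars2 and Dars kept their call in every setting tried. Xpot and Hars each lost theirs in 11 of 18 settings and Nars2 in 9 of 18. The count of 5 lower members was 3 when replicate 1 or 3 of IFN-gamma 8 h, or replicate 2 or 3 of untreated 8 h, was left out, and 2 when replicate 1 of untreated 8 h was. Without the libraries of low Y-linked level it was 3, and the count of higher members was 5.

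At 24 h 8 members rose, where 12.6% of all genes did, and 3 fell, where 10.5% did. Wars had 313, 335.5, 357 and 408 CPM in IFN-gamma 24 h libraries, against 116, 114, 118 and 119 CPM in untreated libraries (1.60 ± 0.11). Kars (0.69 ± 0.09), Yars (0.45 ± 0.08), Tars (0.33 ± 0.06), Lars (0.31 ± 0.07), Cars (0.26 ± 0.09), Aars (0.23 ± 0.06) and Gars (0.22 ± 0.07) rose by less, and the libraries of Cars, Aars and Gars overlapped. Mars2, Nars2 and Dars changed by -0.28, -0.26 and -0.17. In IFN-gamma 24 h replicate 1 Atf4 stood at 218 CPM and Asns at 106.5 CPM, against 133 to 159 and 65.1 to 76.04 CPM in the other 3 libraries of the group. Cars and Gars lost their call without that library, and also without untreated 24 h replicate 2 or 4. Cars lost it without IFN-gamma 24 h replicate 4 too, and Gars without IFN-gamma 24 h replicate 3 (highest edgeR adjusted p over all settings tried 0.453 for Cars and 0.549 for Gars). Neuron markers summed to 172 to 236 CPM in IFN-gamma 24 h libraries, against 68.8 to 76.4 CPM in untreated 24 h libraries, and astrocyte markers to 316 to 359 CPM, against 202 to 238 CPM. Of the astrocyte markers, Aldoc alone averaged 279 CPM in IFN-gamma 24 h cells. Gfap, Aqp4, Aldh1l1 and Slc1a2 had their highest group mean in untreated 48 h cells. The part of these shifts in the synthetase values was not tested.

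At 48 h 9 members rose, where 16.9% of all genes did, and 2 fell, where 19.9% did. Wars had 259, 373, 515 and 417 CPM in IFN-gamma 48 h libraries, against 116, 116, 94.5 and 101 CPM in untreated libraries (1.87 ± 0.12). All 4 treated libraries lay above the untreated ones, though they spread over a range of 259 to 515 CPM. Kars had 299, 218, 250.1 and 279 CPM, against 147, 170.4, 120.4 and 140.1 CPM in untreated libraries (0.85 ± 0.09). Rars (0.42 ± 0.09), Tars (0.40 ± 0.06), Lars (0.39 ± 0.07), Vars (0.38 ± 0.12), Yars (0.27 ± 0.08), Ears2 (0.23 ± 0.08) and Farsb (0.19 ± 0.07) also rose, and Dars (-0.27 ± 0.05) and Mars2 (-0.23 ± 0.07) fell. Kars and the other members just named as rising were also lower in untreated 48 h cells than in untreated 1 h cells. The cytosolic genes summed to 3295 ± 196 CPM in IFN-gamma 48 h, 2685 ± 113 CPM in untreated 48 h and 3301 ± 52.2 CPM in untreated 1 h cells. The libraries of Rars, Vars, Yars, Ears2, Farsb and Mars2 overlapped. Without IFN-gamma 48 h replicate 1 the calls of Vars, Farsb and Ears2 were lost, and without IFN-gamma 48 h replicate 4 those of Farsb and Mars2, which left 1 member lower. Ears2 also lost its call without untreated 48 h replicate 1, and Farsb without untreated 48 h replicate 3 or 4. In IFN-gamma 48 h libraries neuron markers summed to 161 to 222 CPM, against 78.1 to 91.6 CPM in untreated 48 h libraries, and oligodendrocyte markers to 6217 to 8490 CPM, against 9465 to 16627 CPM. The part of these shifts was not tested here either.

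Before that, at 1 h of IFN-gamma, 0 members rose, where 1.08% of all genes did, and 0 fell, where 0.211% did (edgeR; at an unadjusted p under 0.05, 0 were higher and 1 lower; DESeq2 called 0 and 0). Wars had 107, 109.8, 114 and 113 CPM in IFN-gamma 1 h libraries, against 123, 125, 123 and 117 CPM in untreated 1 h libraries. The interferon regulatory factor gene Irf1, by contrast, was already at 632 ± 182 CPM in IFN-gamma 1 h cells and 25.5 ± 1.17 CPM in untreated cells. The IFN-gamma effect at 8 h minus that at 1 h passed the test upward for 4 members, where 7.39% of all genes did, and downward for 3, where 4.99% did. For Wars this difference was 3.005 on the log2 scale, and for Xpot, 1 of the 3, it lost its call in 16 of 19 settings. From 8 to 24 h the effect fell for 1 member, Wars by 1.27, where 0.707% of all genes fell, and rose for 0, where 0.634% rose (edgeR). From 8 to 48 h it rose for 3, Rars, Mars2 and Tars, where 7.2% of all genes rose, and fell for 1, Wars by 0.997, where 9.83% fell. The count of 3 was 0 without IFN-gamma 48 h replicate 1, 5 without untreated 48 h replicate 2, and 1 with each of 6 other libraries left out, namely replicates 1 and 2 of IFN-gamma 8 h, replicate 3 of untreated 8 h and replicates 1, 3 and 4 of untreated 48 h. Over the 4 IFN-gamma comparisons 12 members rose at least once, 5 fell at least once, 0 did both and 19 were never called, where 24%, 28.2%, 1.3% and 49.1% of all genes were in these classes. Tox4 (Pearson r = 0.979), Azi2 (0.977), Slc37a1 (0.977), Ggct (0.977) and Slc25a27 (0.975) were the genes whose 10 group means followed those of Wars most closely.

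**Figure D3:**
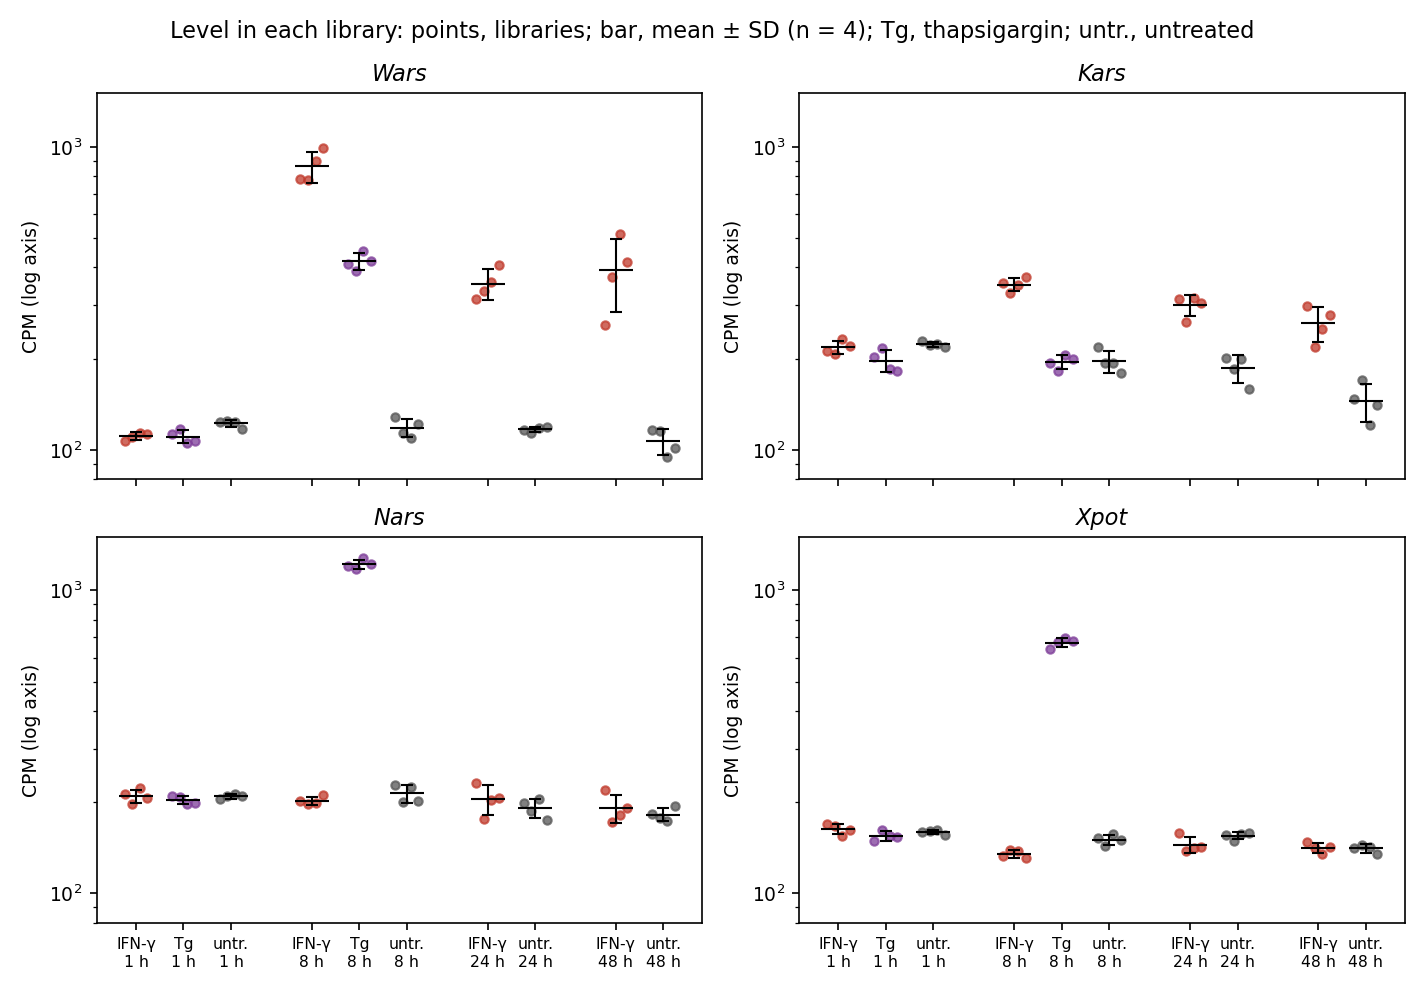
Level of Wars, Kars, Nars and Xpot in each library (points, CPM on a log axis) by group, with the mean and SD of 4 libraries as bars. Wars is high in the IFN-gamma groups from 8 h and in thapsigargin 8 h, and Nars and Xpot only in thapsigargin 8 h. Kars lies above untreated cells of the same time in the IFN-gamma groups from 8 h, though its 48 h libraries reach down to the level of untreated 1 h cells.

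The rise of Wars came with a change of transcript. The isoform table gives estimated counts for 7 Wars transcripts, and 2 of them, Wars-201 and Wars-205, hold 54.6% and 39.5% of the Wars total over all libraries. In the reference annotation Wars-205 starts 976 bases downstream of Wars-201 and has a first exon of 39 bases in place of 106. The other 9 of its 10 exons are shared, the coding start lies in exon 2 in both, and the coding sequence is 1425 bases long in both. Wars-205 held 64.99, 70.7, 70.65 and 74.3% of Wars counts in IFN-gamma 8 h libraries, against 0, 0, 2.51 and 1.05% in untreated 8 h libraries. The groups were far apart. At 24 h it held 45.4, 51.7, 57.3 and 62.3% in IFN-gamma libraries, and at 48 h 35.1, 61.5, 69.8 and 59.3%, while no untreated library of those times exceeded 3.20%.

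The share of the leading transcript Wars-201 was tested. It was 22.8 ± 2.74% in IFN-gamma 8 h cells and 94.9 ± 3.48% in untreated cells, 40.0 ± 7.02% and 95.8 ± 1.32% at 24 h, and 36.9 ± 12.3% and 97.3 ± 0.896% at 48 h (SD, n = 4 each). Each difference had an exact permutation p of 0.0286, two-sided, the smallest that 4 against 4 can give (0.0429 adjusted over 6 comparisons). At 1 h the share was 94.2 ± 1.72% in IFN-gamma cells and 95.3 ± 2.09% in untreated cells (exact permutation p = 0.429). In thapsigargin 8 h cells it was 80.7 ± 1.73%, against 94.9 ± 3.48% in untreated cells (exact permutation p = 0.0286), and Wars-205 held 12.5 ± 1.495%. As a level in estimated CPM, Wars-201 was at 165 ± 13.6 in IFN-gamma 8 h cells, 292 ± 38.4 in thapsigargin 8 h cells and 107 ± 11.9 in untreated 8 h cells. Wars-205 was at 520 ± 118, 45.2 ± 7.28 and 0.934 ± 1.19 in those groups. Wars-201 and Wars-205 differ in their first exon alone, and the depth of reads there is not given in the sources used here.

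**Figure D4:**
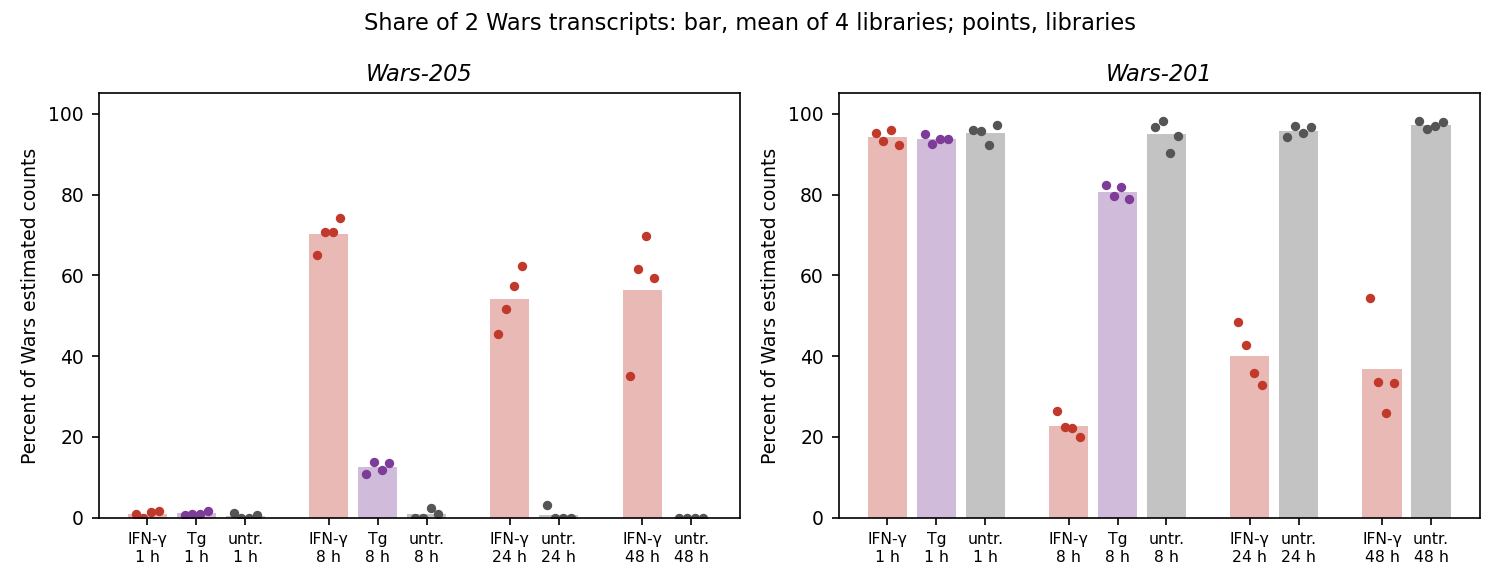
Share of Wars estimated counts on the transcripts Wars-205 (left) and Wars-201 (right) by group, as the mean of 4 libraries (bars) and each library (points), in percent. Wars-205 is near 0 in all untreated groups and at 1 h, 12.5% in thapsigargin 8 h cells and between 54.2 and 70.2% in the IFN-gamma groups from 8 h.

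No other member shifted its leading transcript as far. The leading Qars transcript Qars-231 is annotated as a target of nonsense-mediated decay. Its share was 30.2% in thapsigargin 8 h cells and 49.2% in untreated 8 h cells, lower by 18.98 percentage points. Iars-201 was at 96.6% and 84.1%, higher by 12.5 points. In untreated 1, 24 and 48 h cells Iars-201 was at 92.7, 93.5 and 92.2%, above its untreated 8 h share. Every other member moved by less than 10 points in each treatment comparison.

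Genes around Wars in tryptophan use and stress sensing were also read in IFN-gamma cells at 8 h. Of 7 listed tryptophan use genes 4 passed the low-count filter. Ido2 and Kmo, enzymes of tryptophan breakdown, passed the test at low level, and Kmo was near 0 in untreated cells, so that its level in IFN-gamma cells bears on its passing the filter. Ido2 averaged 1.36 ± 0.159 CPM in IFN-gamma 8 h cells and 0.248 ± 0.200 CPM in untreated cells, and Kmo 0.616 ± 0.112 and 0.0222 ± 0.0444 CPM. Ido1 stayed under 1 CPM in every library. Eif2ak2, the kinase PKR, rose by 3.65 ± 0.11. Of the 24 ATF4 regulators and targets 6 (25%) rose, where 13.1% of all genes did, and 2 (8.33%) fell, where 12.1% did, with Atf3 (4.31 ± 0.38), Trib3 (2.23 ± 0.38), Cebpb (1.69 ± 0.37) and Slc6a9 (1.61 ± 0.09) leading. Atf4 stood at 174 ± 7.84 CPM in IFN-gamma 8 h cells and 160 ± 19.1 CPM in untreated cells, and Asns at 73.7 ± 2.31 and 91.2 ± 13.5 CPM. The tRNA proofreading genes Dtd2 (0.86 ± 0.10) and Prorsd1 (0.84 ± 0.22) rose. Of the 12 tRNA processing genes 1 rose and 2 fell, and of 16 mitochondrial translation genes 1 rose and 1 fell, which is 8.33% and 16.7% of the processing genes and 6.25% each way of the translation genes. Neuron markers summed to 314 to 368 CPM in these IFN-gamma libraries, against 72.9 to 82.5 CPM in untreated libraries, and oligodendrocyte markers to 4785 to 5222 CPM, against 6758 to 8034 CPM. Of the neuron markers, Tubb3 alone averaged 294 CPM in IFN-gamma 8 h cells. The part of these shifts in the synthetase values was not tested.

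Set directly against each other at 8 h, thapsigargin cells were above IFN-gamma cells for 25 members, where 29.9% of all genes were, and below them for 7, where 31.5% were. Nars (2.59 ± 0.07), Cars (2.36 ± 0.09), Eprs (2.36 ± 0.06) and Xpot (2.32 ± 0.05) differed most upward. Wars, with 389 to 454 CPM in thapsigargin cells and 779.7 to 988 CPM in IFN-gamma cells, differed by -1.04 ± 0.11, and Kars by -0.85 ± 0.09. These are the members that IFN-gamma raised the most. Dars rose with thapsigargin and fell with IFN-gamma, and the difference was 0.59 ± 0.05. At 1 h 0 members differed in either direction between the treatments, where 4.36% of all genes were higher and 1.72% lower (edgeR; 2 were higher and 0 lower at an unadjusted p under 0.05).

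Untreated cells had less of most synthetase mRNAs late in culture. At 48 h 21 members were lower than at 1 h, where 30.4% of all genes were, and Qars alone was higher (0.30 ± 0.08), where 31.9% of all genes were. Vars, for valine, averaged 108 ± 2.19 CPM in untreated 48 h cells and 218 ± 3.97 CPM in untreated 1 h cells (-1.01 ± 0.12), with no overlap. Yars2 (-0.85 ± 0.10), Rars (-0.69 ± 0.09), Kars (-0.63 ± 0.09) and Sars2 (-0.49 ± 0.10) followed. Kars averaged 261 ± 35.3 CPM in IFN-gamma 48 h cells and 145 ± 20.7 CPM in untreated 48 h cells, and 223 ± 4.21 CPM in untreated 1 h cells. Oligodendrocyte markers summed to 9465 to 16627 CPM in untreated 48 h libraries, against 6445 to 6862 CPM in untreated 1 h libraries, and astrocyte markers to 288 to 369 CPM, against 197 to 242 CPM. Their part in the lower synthetase levels was not tested. At 24 h 5 members were lower than at 1 h, where 14.4% of all genes were, and 0 higher, where 13.9% were (edgeR; 2 were higher at an unadjusted p under 0.05, and DESeq2 called 0). The 5 were Vars, Yars2, Kars, Gars and Yars, and the count was 1 with replicate 4 of untreated 24 h left out, 2 with replicate 2 or 4 of untreated 1 h left out, and 3 with replicate 1 or 3 of untreated 1 h, or replicate 2 of untreated 24 h, left out. At 8 h 0 members differed from 1 h in either direction, where 4.77% of all genes were higher and 2.16% lower (edgeR; 4 were higher and 3 lower at an unadjusted p under 0.05, and DESeq2 called 0 and 0).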

How the data were processed

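The authors deposited unnormalized read counts per gene for 40 libraries, and the deposited isoform table holds estimated counts per transcript. The submitters' processing notes name STAR, featureCounts, kallisto and edgeR, without versions or roles, and their genome build, annotation and strand setting are not given in the sources used. Genes were tested with the quasi-likelihood test of edgeR 4.0.16 in R 4.3.3 (TMM scaling, filterByExpr by group, 1 model of 10 group means with 30 residual degrees of freedom, prior count 0.125), and p-values were adjusted by Benjamini-Hochberg over 15135 genes with a threshold of 0.05. SE is the log2 fold change divided by the square root of F. CPM used TMM-scaled library sizes. Replicate numbers follow accession order and pair nothing. Replicate pairs differed beyond counting error, at 5.79 to 491 in chi-square over its degrees of freedom. Exon lengths and overlaps came from the reference annotation, and promoter windows of 300 bases from RefSeq (GRCm38.p6). Wars transcript shares were compared by an exact permutation test over 70 splits. The code was tested on simulated data. Alternatives were DESeq2 1.42.0, RLE size factors, no low-count filter, only the groups compared, the isoform table summed per gene, library number ranges as a block or alone, a Y-linked covariate and leaving out each library. Leaving out the libraries of low Y-linked level was chosen after seeing the data. Members, lists and named genes were chosen with earlier results of these data known. All libraries are given for Wars, Xpot and up to 6 called members per comparison with no overlap and an absolute log2 fold change of at least 1, and other genes by size of fold. Kars, Qars and the subunits of the phenylalanyl enzyme were described in more detail after their values were seen.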

Additional observations from a re-analysis of the deposited data

Results flagged for a closer look

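Among 100 groups of 4 libraries checked, 3 held a library farther from the rest than Dixon's test allows at its 95% limit, and chance gives about 1 in 20. They were Lars in untreated 1 h replicate 1, at 134.5 CPM, Lars in untreated 24 h replicate 4, at 120.2 CPM, and Wars-205 in untreated 24 h replicate 1, at 3.204% of Wars estimated counts against 0 in the other 3 libraries.

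The size of the treatment effect differed between times for several members (edgeR quasi-likelihood test of the difference, adjusted p under 0.05). For IFN-gamma at 8 h minus 1 h the log2 differences were 3.005 for Wars, 0.876 for Kars, 0.419 for Yars, 0.282 for Lars, -0.187 for Xpot, -0.26 for Dars and -0.617 for Mars2. The call of Xpot was lost in 16 of 19 settings (highest edgeR adjusted p 0.425), that of Lars in 2 and that of Dars in 1. For 24 h minus 8 h the log2 difference was -1.27 for Wars. For 48 h minus 8 h the log2 differences were 0.418 for Rars, 0.31 for Mars2, 0.282 for Tars and -0.997 for Wars.

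For thapsigargin at 8 h minus 1 h, the cytosolic genes and Xpot had log2 differences of 2.55 (Nars), 2.36 (Gars), 2.35 (Lars), 2.21 (Xpot), 2.2 (Eprs), 2.11 (Tars), 2.05 (Cars), 2.04 (Sars), 1.97 (Wars), 1.81 (Iars), 1.805 (Aars), 1.67 (Yars), 1.62 (Mars), 1.51 (Rars), 1.04 (Farsb), 0.76 (Vars), 0.418 (Dars) and 0.263 (Hars). The mitochondrial genes had 0.872 (Ears2), 0.825 (Nars2), 0.367 (Rars2), 0.304 (Wars2), 0.296 (Cars2), -0.307 (Mars2), -0.336 (Hars2), -0.654 (Aars2) and -0.854 (Pars2).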

How the results depend on the processing

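No called member result changed direction under the alternatives run for it. Of 158 called member results 106 kept their call in all of these, among them 23 of 28 in thapsigargin 8 h over untreated cells, 4 of 9 in IFN-gamma 8 h, 3 of 11 at 24 h, 5 of 11 at 48 h and 0 of 1 in thapsigargin 1 h. The 32 called results of thapsigargin against IFN-gamma at 8 h were run under 11 alternatives and the others under 18 or 19. No paired analysis was possible because the replicate numbers follow accession order and the labels pair no libraries. The library number ranges were used as a block instead.

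Counts of called members moved by over 1.5 times as follows, and the cause was not tested. In some of these settings fewer libraries entered the fit. In the lower 20 library numbers alone, IFN-gamma raised 2 at 8 h (4 in all libraries), 3 at 24 h (8) and 4 at 48 h (9) and lowered 1 at 24 h (3) and 1 at 48 h (2), thapsigargin raised 0 at 1 h (1), and untreated cells lowered 0 at 24 h (5) and 11 at 48 h (21). In the upper 20 alone, IFN-gamma lowered 2 at 8 h (5) and 1 at 24 h (3), thapsigargin raised 0 at 1 h (1) and lowered 3 at 8 h (7), and untreated cells raised 0 at 48 h (1). With only the groups compared, IFN-gamma lowered 2 at 8 h and 1 at 48 h and raised 5 at 24 h and 4 at 48 h, thapsigargin lowered 1 at 1 h (0), and untreated cells raised 1 and lowered 1 at 8 h (0) and raised 1 at 24 h (0). With the isoform table summed per gene, IFN-gamma lowered 2 at 8 h and raised 5 at 24 h and 5 at 48 h, and untreated cells lowered 2 at 24 h. With no filter, IFN-gamma lowered 2, 1 and 1 at 8, 24 and 48 h, untreated cells lowered 2 at 24 h, and the differences of effect called lower from 1 to 8 h were 1 (3) and higher from 8 to 48 h 0 (3). DESeq2, RLE size factors and the library range block each gave 1 member lower at 1 h of thapsigargin (0). Without the libraries of low Y-linked level, IFN-gamma lowered 3 at 8 h and untreated cells raised 2 at 24 h.

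With each library left out in turn, IFN-gamma lowered 2 to 4 at 8 h and 1 to 3 at 48 h, thapsigargin lowered 0 to 1 at 1 h, untreated cells raised 0 to 1 and lowered 1 to 5 at 24 h and raised 1 to 2 at 48 h, and the IFN-gamma effect rose for 0 to 1 members from 8 to 24 h and for 0 to 5 from 8 to 48 h. The Wars-201 share then differed from untreated cells by -73.7 to -71.0 points at 8 h, -58.6 to -53.4 at 24 h and -66.3 to -56.8 at 48 h of IFN-gamma, and by -15.7 to -13.1 at 8 h of thapsigargin, where the two-sided exact p, doubled from 1 side, cannot go below 0.0571 with 3 against 4 libraries. With medians the share differences were -73.2, -56.7, -63.9 and -14.8 points (exact permutation p = 0.0571 each). In the 250 bases before the start alone, TGATGNAA was in 3 of 14 cytosolic and Xpot windows (5 in the whole window) and 3.91% of genes, and CCACG in 6 of 14 (11), 5 of 13 mitochondrial ones (6) and 30.96% of genes, while the counts for TTCNNNGAA and AAANNGAAA did not change (8.13% and 10.8% of genes). Depth of 13165483 reads or more on genes left no member untested.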
